A study of Mus musculus with 36 samples.

Results

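Reprogramming turns fibroblasts into cells that resemble embryonic stem (ES) cells, and it runs over days to weeks. The cultures described here are mouse embryonic fibroblasts (MEFs) labelled 2ndMEF-KOS-ZERT2 that were induced with doxycycline, and the question was how their RNA changed between day 3 and day 6. Members were chosen by their titles alone: 8 of the 36 arrays of the series, 4 of day 6 and 4 of day 3. On each day 2 arrays came from cultures without tamoxifen and 2 from cultures with tamoxifen. All 16 secondary MEF samples of days 3 and 6 are labelled as clone #1 on a hybrid background of C57Bl/6 x 129. Per the protocols they grew as monolayers in ES cell medium with LIF, a cytokine that maintains ES cells. The induced groups (Dox+) received doxycycline at 1.5 µg/ml, and those with tamoxifen (Dox+Tmx+) received it at 200 nM. The comparison groups were the same cells without doxycycline (Dox-) on the same days, 4 arrays a day, again 2 of them with tamoxifen. Levels are also given for wild MEFs (F1 hybrid from V6.5), with and without tamoxifen, for the ES line v6.5 and for iPS cells (induced pluripotent stem cells) labelled KOS-ZERT2, clone #2, with 2 arrays for each of these groups. Wild MEF levels are those without tamoxifen unless stated. Induced and uninduced cultures of day 1, with and without tamoxifen, had 4 arrays each. All results come from 1 clone, and the labels do not say that replicates were separate cultures. The p-values therefore measure the spread between replicate arrays, which may be technical. That spread was pooled over all 18 groups of the series. These include MEFs titled MEF2 ZERT2, with and without tamoxifen (2 arrays each), whose levels are not given.

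Doxycycline switches on transgenes that are built to respond to it. ERT2 is a receptor domain that binds tamoxifen compounds, and a protein fused to it is held inactive until they are present. As textbook background, factor-driven reprogramming begins with changes in proliferation, adhesion and metabolism and with loss of fibroblast genes, and most pluripotency genes become active late. In medium without the factors, plated fibroblasts also change with time, so a day effect alone is not an effect of the factors. The Dox- cultures measure that drift.

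Each array compared a Cy3-labelled sample with 1 common Cy5-labelled reference, and a level below is the log2 ratio of sample to reference. A change is day 6 minus day 3 on the same scale, so 1 is a 2-fold change. The share of probes well above background was 62.9% to 77.1% on the induced day 3 arrays and 72.5% to 75.9% on those of day 6. In the uninduced cultures it was 68.4% to 74.2% and 68.8% to 73.6%. The standard deviation of the difference between replicate arrays over all tested probes was 0.102 to 0.157 in the induced groups and 0.0869 to 0.256 in the uninduced groups, largest in the uninduced day 6 cultures with tamoxifen. Each day and doxycycline state was hybridised on a slide of its own, 4 slides in all, on 1 scan day, so slide and day cannot be told apart. Tamoxifen arrays lay in the same positions on each slide, so tamoxifen and position cannot be told apart. The deposited files pair no probe with a gene. A total of 258 of 42006 probes could be given 1 gene by placing at least 30 of their 60 bases in RefSeq promoter windows (GRCm38.p6), and 194 of these were tested. The transgenes and the fibroblast and ES cell markers listed for a check of the labels had no placed probe and were not analysed here.

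The sequences of 8 probes are shown because their genes carry the patterns described below. Plet1, Chil5 and Il17rc rose in induced cultures, Fam180a and Lamb2 rose in induced and uninduced cultures, Arhgap27os3 and Bcl11a fell in induced cultures, and C1qtnf3 rose in uninduced cultures. Each line gives the first 30 placed bases of the probe, 5′ to 3′ on the strand of its gene. Capitals mark AATAAA, the usual signal for polyadenylation, which among these stretches was found in that of Il17rc.
Plet1: ctactagcagatttccactgtgcccagacc
Chil5: atgctcctctatacagtgggaataggaact
Il17rc: ctacactagAATAAAagccgatacagtatt
Fam180a: cccaaagccatgaagaagactctgtatttt
Lamb2: ccctagggcctagccttgtcgccaagcact
Arhgap27os3: ggtggctcaggttggggtgttttcatgttt
Bcl11a: ttgtgatgttttctgacagtagcctccaag
C1qtnf3: ttctgctctttgaaactaagtgacaaggaa
In GRCm38.p6 these bases lie within the RefSeq spans of their genes. They are at chr9:50505002-50505031 for Plet1 and chr3:106017185-106017214 for Chil5. They are at chr6:113483106-113483135 for Il17rc and chr6:35313025-35313054 for Fam180a. They are at chr9:108490426-108490455 for Lamb2 and chr11:103344762-103344791 for Arhgap27os3. They are at chr11:24172868-24172897 for Bcl11a and chr15:10978653-10978682 for C1qtnf3. Chil5 and Fam180a are on the minus strand and the other 6 on the plus strand. Exons, introns and UTRs were not given in the tables used, so which of these a probe reads is not stated here.

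Between day 3 and day 6 the induced cultures changed broadly but mostly by small amounts. Among 33099 tested probes, 7862 rose (23.8%) and 9388 fell (28.4%) at an adjusted p under 0.05 (limma, Benjamini-Hochberg adjustment), which is 52.1% in all. The median size of a called change was 1.22-fold, and 84.3% of the called probes moved by under 1.5-fold. Of all tested probes, 337 were called and rose (1.02%) and 363 were called and fell (1.1%) by 2-fold or more. By 4-fold or more, 26 rose and 20 fell. Over the 700 probes with at least 2-fold changes, the median absolute change was 1.30 (log2) in the sample channel and 0.0679 in the reference channel. Without loess normalization the share of calls that were increases was 61.0% in place of 45.6%, so the balance of rising and falling probes depended on the normalization. With the log ratio that the scanner software computes, 887 probes rose and 984 fell by at least 2-fold.

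The extremes were probes with no gene name here. Probes and genes were named for this change only if they were called and their days did not overlap. Probe Z00030685-1 had levels of -4.05 and -4.01 without tamoxifen and -3.69 and -3.71 with it on day 3. On day 6 its levels were -0.73 and -0.77 without tamoxifen and 0.38 and 0.15 with it. Its increase was 3.62 (SE 0.165, adjusted p = 4.56e-15, limma), a fold of 12.3. The uninduced cultures rose by 2.00 (adjusted p = 3.89e-10, limma), where levels went from between -4.72 and -4.53 to between -3.26 and -1.38. Probe Z00057709-1 went from 0.91, 0.78, 0.72 and 0.58 on day 3 to 4.23, 4.29, 3.96 and 3.82 on day 6. It rose by 3.33 (SE 0.061, adjusted p = 4.31e-22, limma), against 0.97 in uninduced cultures. Its day 6 level lay above ES cells (1.13 and 1.12) and wild MEFs (2.95 and 3.00).

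Both probes shown here for the largest decreases had a high level on day 3, which a choice by decrease favours. Probe Z00064341-1 had levels of 4.44, 4.24, 5.02 and 4.86 on the induced day 3 arrays and 1.13, 1.03, 1.30 and 1.30 on day 6, a 10.9-fold decrease. Its change was -3.45 (SE 0.061, adjusted p = 3.02e-22, limma), and all uninduced arrays of days 3 and 6 were between -0.20 and -0.01. Probe Z00040660-1 had levels of 5.16, 5.29, 5.71 and 5.83 on the induced day 1 arrays, 7.10, 7.11, 7.54 and 7.55 on day 3, and 3.91, 3.63, 4.31 and 4.07 on day 6. Its change was -3.35 (SE 0.068, adjusted p = 3.14e-21, limma). Uninduced arrays of days 3 and 6 were between -0.51 and -0.14, so the probe was still far above them on day 6.

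**Figure D1:**
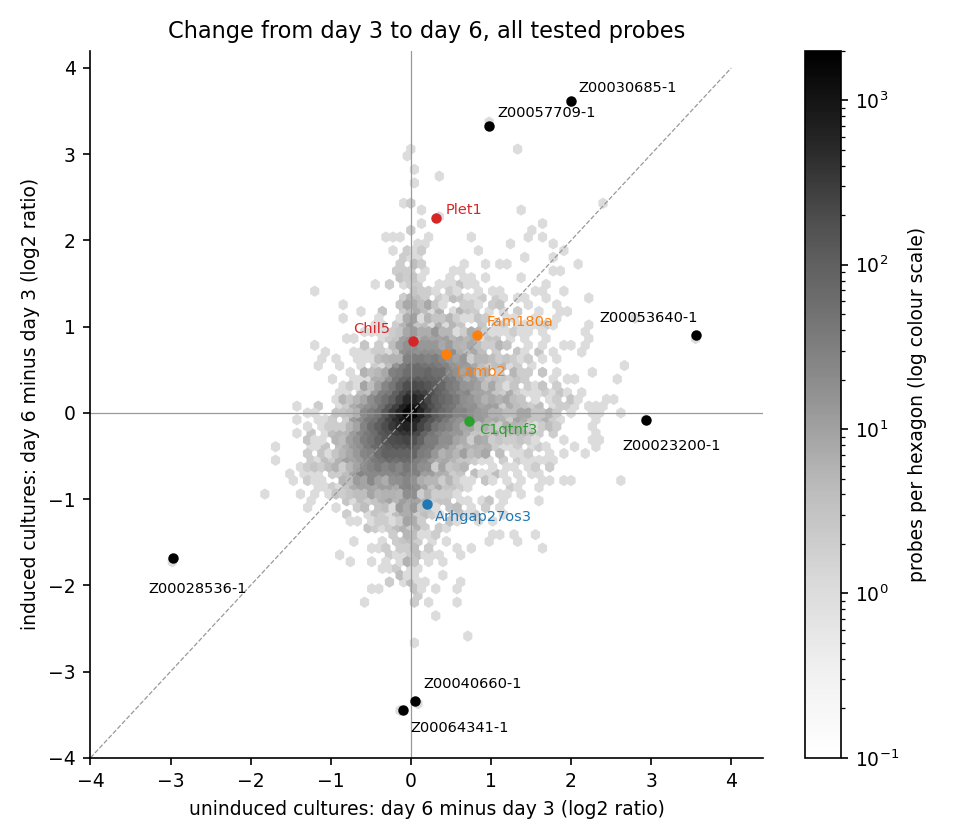
Change from day 3 to day 6 (log2 ratio) of all 33099 tested probes in uninduced cultures on the x axis and induced cultures on the y axis. Hexagons are shaded by probe number on a log scale, points mark named genes and probes, and the dashed line is equal change; Plet1 and the extreme falling probes lie near the vertical axis and Fam180a near the line.

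Among named genes, Plet1, which encodes a surface protein of trophoblast and epithelial progenitor cells, rose the most. Its levels on day 3 were -1.22 and -1.35 without tamoxifen and 0.08 and 0.04 with it. On day 6 they were 0.90 and 0.80 without tamoxifen and 2.49 and 2.38 with it. On each day the cultures with tamoxifen lay above those without. The increase was 2.26 (SE 0.155, 4.78-fold, adjusted p = 9.14e-12, limma). In uninduced cultures 7 of the 8 arrays were between -2.38 and -2.23, and the day 6 array without tamoxifen replicate 1 stood apart at -1.05. The uninduced change was 0.32 (adjusted p = 0.103, limma). ES cells had levels of 1.86 and 1.93, and the probe was not well above background on the wild MEF arrays. The induced day 6 cultures with tamoxifen thus exceeded the ES cells.

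Chil5, a member of the chitinase-like family, and Il17rc, a subunit of interleukin receptors, also rose in induced cultures. Chil5 had levels of 0.93, 1.14, 0.95 and 0.93 on day 3 and 1.71, 1.77, 1.92 and 1.86 on day 6. Its increase was 0.83 (SE 0.069, 1.78-fold, adjusted p = 2.65e-10, limma). Its probe was well above background on all 8 induced arrays but on 0 of the 8 uninduced arrays of days 3 and 6 and on 0 of the ES cell arrays. Its increase ranged from 0.64 to 1.46 over the other processing settings. Il17rc had levels of -1.37, -1.38, -1.37 and -1.43 on day 3 and -0.60, -0.62, -0.64 and -0.67 on day 6. Its increase was 0.75 (SE 0.033, 1.69-fold, adjusted p = 2.68e-15, limma), towards the level of uninduced cultures and wild MEFs, which lay between -0.26 and -0.15. ES cells were lower, at -2.95 and -2.89.

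Lamb2, Fam180a and Podxl2 rose in induced cultures, and also in uninduced ones. Lamb2, a laminin chain of basement membranes, went from 1.54, 1.47, 1.18 and 1.23 to 2.04, 2.14, 1.94 and 2.03. This increase of 0.68 (SE 0.049, adjusted p = 2.54e-11, limma) compared with 0.43 (adjusted p = 8.79e-08, limma) without induction. Fam180a went from 2.08, 1.99, 1.84 and 1.75 to 2.96, 2.80, 2.82 and 2.70, an increase of 0.90 (SE 0.078, adjusted p = 5.30e-10, limma). Its uninduced increase was 0.82 (adjusted p = 3.79e-09, limma), and the difference between the increases was 0.08 (adjusted p = 0.611, limma). Podxl2, a sialomucin of the podocalyxin family, rose by 0.41 with induction and by 0.56 without. The level of ES cells minus that of wild MEFs was -3.36 (log2) for Lamb2 and -2.64 for Podxl2, and the Fam180a probe was not well above background in ES cells.

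Other named genes rose by less than 1.3-fold. Ndufb11, a subunit of respiratory complex I, went from -0.01, -0.05, -0.06 and -0.08 to 0.44, 0.35, 0.27 and 0.18, an increase of 0.36 (adjusted p = 4.06e-09, limma). The other complex I subunits with a placed probe, singled out after their values were seen, also rose: Ndufa11 by 0.17 (adjusted p = 7.09e-04, limma) and Ndufa9 by 0.14 (adjusted p = 1.47e-04, limma). That is 3 of 3 measured members, where 23.8% of all tested probes rose. The probes of these 3 were brighter, with a median of 12.2 (log2) against 8.39 for all tested probes. In uninduced cultures the changes of the 3 were 0.08, 0.07 and -0.07, and that of Ndufa9 passed the test as a decrease. The difference from drift did not pass for Ndufa11 (adjusted p = 0.168, limma). Crxos, a homeobox gene that lies opposite Crx, rose by 0.34, with 0.33 in uninduced cultures. Zfp512b, a zinc finger gene, rose by 0.32. Hacl1, a peroxisomal lyase of fatty acid oxidation, rose by 0.23, and the non-coding RNA Gm11423 by 0.22. Stard13 rose by 0.22 in induced cultures and fell by 0.30 in uninduced ones on 1 probe. The other Stard13 probe changed by -0.03 and -0.05 and did not pass in either (adjusted p = 0.518 and 0.167, limma), so the probes disagree.

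Arhgap27os3, a non-coding RNA from the strand opposite Arhgap27, fell the most of the named genes. Its levels were 2.02, 2.01, 1.97 and 1.87 on day 3 and 1.06, 0.61, 1.17 and 0.79 on day 6, with no overlap. The change was -1.06 (SE 0.082, adjusted p = 8.42e-11, limma), which is 2.08-fold. All uninduced arrays of days 3 and 6 were between -0.47 and -0.12, below every induced array. Bcl11a, a zinc finger repressor known for silencing fetal globin, fell from -0.66, -0.74, -0.64 and -0.59 to -1.15, -1.19, -1.07 and -1.13. Its change was -0.48 (SE 0.037, adjusted p = 9.02e-11, limma). On day 6 it lay below uninduced cultures (0.03 to 0.24), wild MEFs (-0.42 and -0.41) and ES cells (0.02 and 0.01).

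Dclre1b, Gnl3, Kif22 and Rpl38 fell by small amounts. Dclre1b, a nuclease that protects telomeres, fell from between -1.26 and -1.13 to between -1.64 and -1.47, a change of -0.36 (adjusted p = 3.70e-10, limma). Gnl3, a nucleolar GTPase also called nucleostemin, went from -0.60, -0.55, -0.57 and -0.54 to -0.87, -0.94, -0.83 and -0.82. This change of -0.30 (adjusted p = 6.55e-04, limma) stood beside -0.29 in uninduced cultures. Kif22, a kinesin that binds chromosomes in mitosis, fell by 0.26, and the ribosomal protein gene Rpl38 fell by 0.32 and 0.25 on its 2 probes. Rpl38 fell further, by 0.66 and 0.57, without induction. Genes of ribosomal proteins have many near-identical copies, so these probes may read more than 1 locus. For these 4 genes the ES cells exceeded wild MEFs by 1.14 to 2.74 (log2).

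The remaining named decreases were between 0.21 and 0.31. Abhd6, a lipase of monoacylglycerols, fell from between 1.59 and 1.83 to between 1.24 and 1.58, and its uninduced levels were lower, between -0.04 and 0.17. Mapkbp1, a scaffold of JNK signalling, changed by -0.27, Neurl4, a centriolar protein gene, by -0.25, Gm3194 by -0.25, Rtraf, an RNA-binding factor, by -0.23, and Lax1, an adaptor of lymphocyte signalling, by -0.21. The decreases of Mapkbp1, Neurl4, Rtraf and Lax1 did not pass the test without loess normalization (adjusted p from 0.135 to 0.298, limma). That of Gnl3 did not pass with the local backgrounds as deposited (adjusted p = 0.0958, limma).

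**Figure D2:**
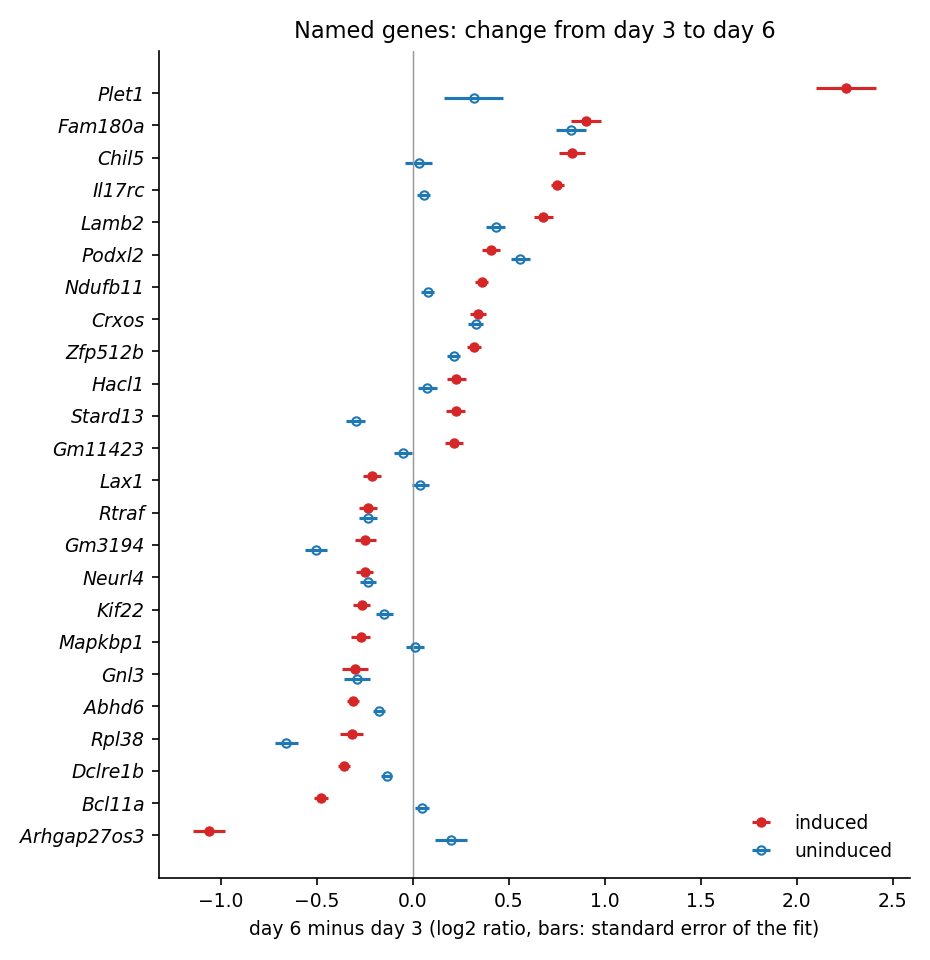
Change from day 3 to day 6 (log2 ratio) of the 12 rising and 12 falling named genes in induced (filled) and uninduced (open) cultures, with the standard error of the fit over 4 arrays a day. Plet1 and Arhgap27os3 are the extremes in induced cultures, and Rpl38 and Gm3194 fell further without induction.

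Of the 194 tested probes with a gene, 28 rose and 24 fell in induced cultures. That is 26.8%, against 52.1% of all probes. These probes were dimmer, with a median brightness of 7.30 (log2) against 8.39 for all tested probes. Of 9 histone probes 1 fell, that of H4c3 (-0.20, adjusted p = 0.00292, limma), and 0 rose. Of 5 probes for ribosomal proteins of the cytosol 2 fell, both of Rpl38. Of 8 olfactory receptor probes 0 passed the test at a median brightness of 6.28. The 3 genes of the prepared pathway lists that had a placed probe were Ndufa9, Acta2 and Rbbp5. Acta2, the smooth muscle actin of contractile fibroblasts, changed by 0.11 (adjusted p = 0.244, limma) with induction and by 0.36 (adjusted p = 5.69e-04, limma) without. Rbbp5, a subunit of histone methyltransferase complexes, changed by 0.02 (adjusted p = 0.776, limma).

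**Figure D3:**
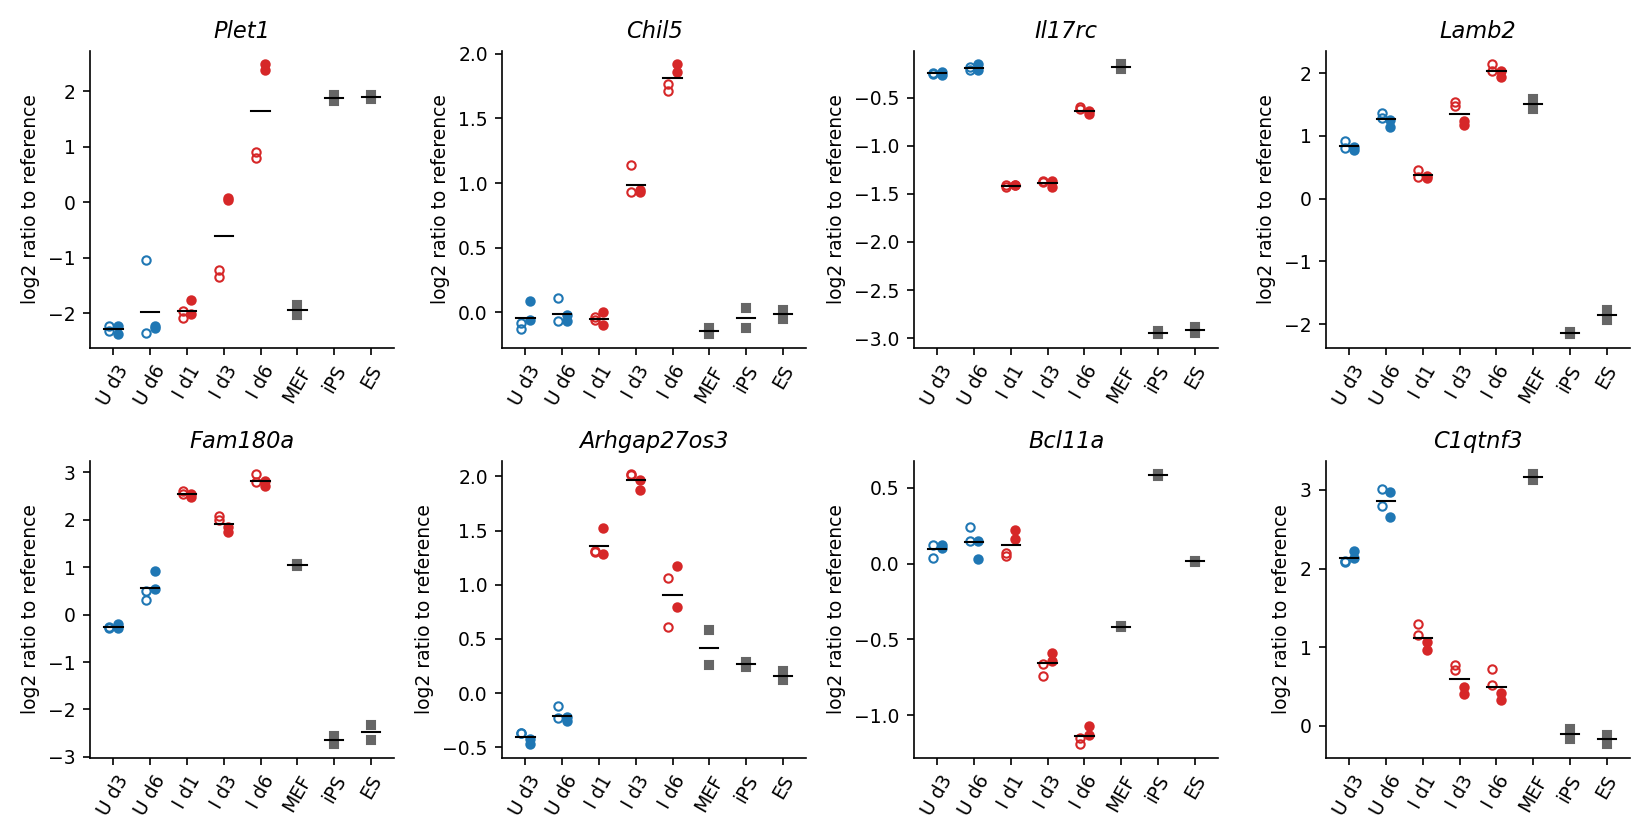
Log2 ratio to the reference of 8 genes on every array of uninduced (U) and induced (I) cultures by day (d), wild MEFs, iPS and ES cells; open circles are without and filled circles with tamoxifen, and bars are means. Plet1 on day 6 with tamoxifen lies above the ES cells, and Arhgap27os3 is highest on day 3.

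To compare these changes with drift, the same contrast was made in uninduced cultures, and the difference was tested. As each day and doxycycline state had its own slide, slide effects cannot be told apart from this difference either. Without doxycycline 7606 probes rose (23%) and 7074 fell (21.4%), 44.4% in all. Its at least 2-fold changes were mostly increases, 569 probes (1.72%) against 77 decreases (0.233%). The change differed between induced and uninduced cultures for 13699 probes (41.4%), more positive in induced cultures for 5895 (17.8%) and more negative for 7804 (23.6%). Without loess normalization the share of positive differences was 53.4% in place of 43%.

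The uninduced change of the same probes was as follows. Over all tested probes, 23% rose and 21.4% fell without induction. Of the 7862 rising probes, 3552 (45.2%) also rose without induction, 809 (10.3%) fell and 3501 did not pass. Of the 9388 falling probes, 3918 (41.7%) also fell without induction, 1428 (15.2%) rose and 4042 did not pass. Among the 337 probes that rose at least 2-fold, 186 (55.2%) also rose in uninduced cultures, 22 (6.53%) fell and 129 did not pass. Among the 363 probes that fell at least 2-fold, 95 (26.2%) also fell in uninduced cultures, 86 (23.7%) rose and 182 did not pass. The share that rose was thus near the 23% of all tested probes. Of the 569 probes with large uninduced increases, 248 (43.6%) also rose with induction, 146 (25.7%) fell and 175 did not pass. Over all tested probes, 23.8% rose and 28.4% fell with induction.

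Among named genes, the increase exceeded drift for Plet1 by 1.94 (SE 0.219, adjusted p = 1.00e-07, limma) and for Il17rc by 0.69 (adjusted p = 1.32e-11, limma). On the Stard13 probe that rose, the excess was 0.52 (adjusted p = 8.39e-07, limma), while the other Stard13 probe passed in neither culture. The excess also passed, by 0.25 to 0.28, for Ndufb11, Lamb2 and Gm11423. For Chil5 drift was not measured, since its probe was not well above background in uninduced cultures. The decrease exceeded drift for Arhgap27os3 by 1.26 (adjusted p = 3.25e-09, limma) and for Bcl11a by 0.53 (adjusted p = 1.24e-08, limma). The differences of Dclre1b, Mapkbp1, Lax1 and Abhd6 passed too, at -0.28 to -0.13. Rpl38 and Gm3194 fell less than in uninduced cultures, with differences of 0.34 and 0.26 that passed. For Fam180a, Podxl2, Crxos, Zfp512b, Hacl1, Gnl3, Kif22, Neurl4 and Rtraf the difference did not pass the test.

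Some genes moved with time in uninduced cultures and differed there from induced ones. C1qtnf3, a secreted protein of the complement C1q family, went from 2.08, 2.09, 2.13 and 2.22 to 2.79, 3.01, 2.66 and 2.97 without doxycycline. With doxycycline it was 0.77, 0.71, 0.50 and 0.40 on day 3 and 0.73, 0.52, 0.42 and 0.33 on day 6, so the 8 induced arrays lay below every uninduced array. Its uninduced increase of 0.73 (adjusted p = 6.97e-08, limma) was 0.15 (adjusted p = 0.552, limma) with the ratio of the scanner software and 0.51 (adjusted p = 0.0721, limma) with the local backgrounds as deposited. The difference between the changes, -0.82 (adjusted p = 2.67e-06, limma), was then -0.33 (adjusted p = 0.342) and -0.60 (adjusted p = 0.142), and did not pass. Renbp, an epimerase of amino sugars, rose by 0.51 without induction and fell by 0.15 with it, a difference of -0.66 (adjusted p = 1.66e-10, limma). The induced arrays without tamoxifen went from 0.62 and 0.67 to 0.34 and 0.39, and those with tamoxifen from 0.73 and 0.71 to 0.68 and 0.75. The difference between these arms did not pass (adjusted p = 0.13, limma). S100a7a, of the S100 calcium-binding family, rose by 0.46 without induction and changed by -0.10 with it. The histone gene H2bc11 rose by 0.49 without induction and changed by 0.13 with it.

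Snrpf and Snu13 fell without induction, towards or past the levels that induced cultures had on day 3. Snrpf, a core protein of spliceosomal particles, went from between -0.05 and 0.04 on day 3 to -0.34, -0.53, -0.36 and -0.87 on day 6. The induced levels were between -0.42 and -0.38 on day 3 and between -0.52 and -0.41 on day 6. Snu13, a protein of spliceosomal and nucleolar particles, fell by 0.35 without induction (adjusted p = 0.00352, limma) and changed by -0.02 with it. The decrease of Snu13 did not pass with the local backgrounds as deposited (adjusted p = 0.0508, limma) or in a fit of the 8 uninduced arrays alone (adjusted p = 0.0823, limma), and its difference from induced cultures did not pass (adjusted p = 0.0524, limma). Pax7, a transcription factor of muscle progenitors, fell by 0.31 without induction and changed by -0.11 with it, and this difference did not pass (adjusted p = 0.19, limma). Without the uninduced day 6 array with tamoxifen replicate 2, the uninduced change was -0.17 for Snu13 and -0.19 for Pax7. Rpl10a rose by 0.27 with induction (adjusted p = 0.346, limma) and changed by -0.58 without it. Its difference was 0.84 (adjusted p = 0.0355, limma), but it passed under only 11 of 24 other settings. The uninduced day 6 array with tamoxifen replicate 2 was at -1.24 and the other uninduced arrays between 0.08 and 0.61, and the difference was 0.39 (adjusted p = 0.0952, limma) without it.

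The largest differences from drift were again in probes without a gene name. Probe Z00056592-1 rose by 3.05 with induction, and probe Z00075510-1 rose by 2.98 with induction and changed by -0.02 without (adjusted p of the difference 3.07e-19 for Z00075510-1, limma). The first had levels of 1.05, 1.12, 2.04 and 1.98 on day 3 and 4.12, 4.12, 5.21 and 4.91 on day 6, higher with tamoxifen on each day. It was well above background on 0 of the 8 uninduced arrays, so its drift was not measured. Probe Z00036124-1 went the other way: without induction it rose from between -2.47 and -2.39 to between 0.09 and 0.24, while with induction it fell from between 3.89 and 3.98 to between 3.06 and 3.23. Its levels in ES cells were -6.59 and -6.61. The strongest drift was that of probe Z00053640-1, which rose by 3.56 without induction (SE 0.129, adjusted p = 8.85e-17, limma) and by 0.91 with it. Probe Z00023200-1 rose by 2.94 without induction, from between 0.69 and 0.83 to between 3.54 and 3.90. In induced cultures it was already at 3.52 to 3.95 on day 3 and at 3.34 to 3.83 on day 6. Probe Z00028536-1 fell by 2.97 without induction and by 1.69 with it, and the changes of probe Z00076258-1 were -1.81 and -0.92.

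Probes that separate ES cells from wild MEFs were followed next. A probe was called ES-high when its level in ES cells was at least 4-fold that in wild MEFs at an adjusted p under 0.05 (3.63% of probes), and MEF-high in the opposite case (7.57%). Of 1201 ES-high probes, 270 rose (22.5%) and 634 fell (52.8%) in induced cultures between day 3 and day 6. The shares over all tested probes were 23.8% and 28.4%. The median change of the ES-high probes was -0.16, against -0.01 for all. Of 2507 MEF-high probes, 1169 rose (46.6%) and 655 fell (26.1%), with a median of 0.11. Both medians moved away from the ES cell profile. The uninduced cultures moved the same way: 466 of the ES-high probes (38.8%) fell and 1638 of the MEF-high probes (65.3%) rose. The more frequent direction of each list in induced cultures was the same under each processing setting for which the lists were formed and with an 8-fold limit.

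By array, the median ES-high probe had a level minus that of ES cells of -2.23 to -2.04 (log2) on induced day 3 and of -2.42 to -2.22 on day 6. Within each tamoxifen arm the days did not overlap, and on each day the arrays with tamoxifen were nearer to ES cells. Uninduced arrays were farther, at -2.89 to -2.84 on day 3 and -2.97 to -2.93 on day 6. The median MEF-high probe lay 2.06 to 2.17 above ES cells on induced day 3 and 2.17 to 2.30 above on day 6. In uninduced cultures this distance grew from 2.54 to 2.55 on day 3 to 2.82 to 2.92 on day 6, close to the 2.86 to 2.92 of the 4 wild MEF arrays with and without tamoxifen. In means over 4 arrays, 202 of the 1201 ES-high probes were within 2-fold of ES cells on induced day 3 and 173 on day 6. The iPS cells had 1180 within that range. In bulk RNA, a change in the share of reprogramming cells and a change of RNA within cells cannot be told apart.

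**Figure D4:**
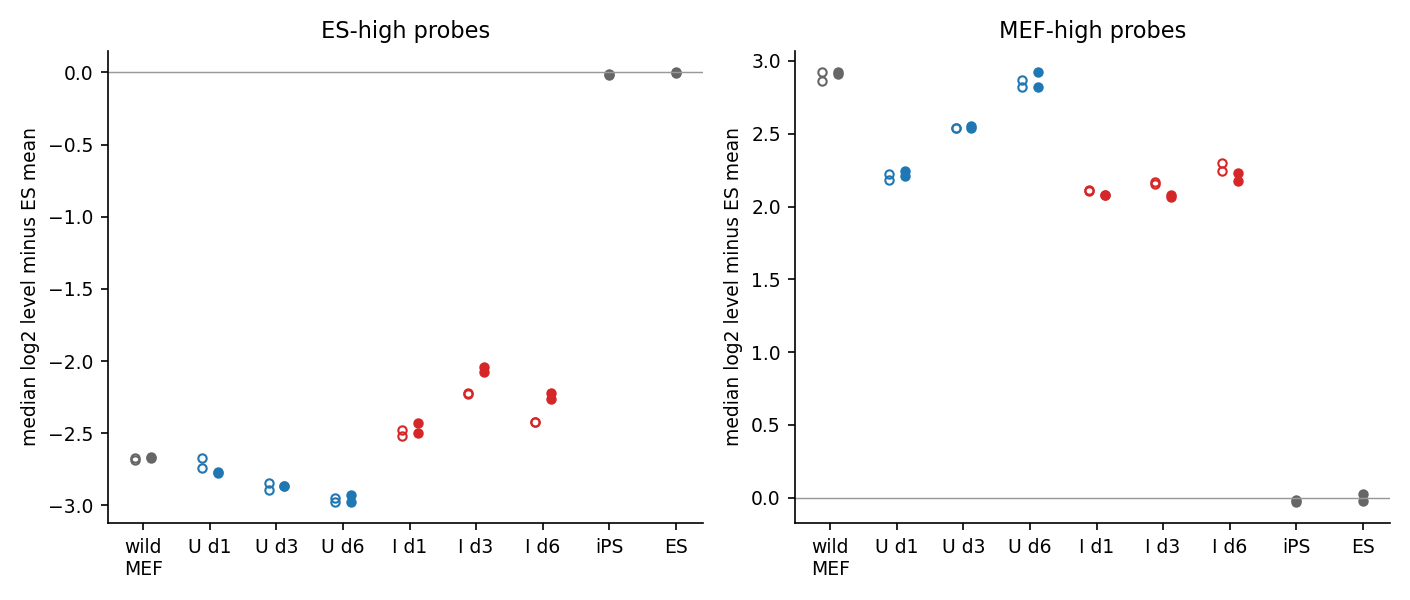
Median level of 1201 ES-high probes (left) and 2507 MEF-high probes (right) on each array, as log2 difference from the ES cell mean (line at 0); U is uninduced, I induced, d day, open circles without and filled circles with tamoxifen. Induced day 6 arrays lie farther from ES cells than induced day 3 arrays of the same arm in both panels.

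A minority of ES-high probes still moved towards ES cells: 42 rose at least 2-fold with induction, against 3 without. Plet1 was among the ES-high probes that rose. A further 54 ES-high probes fell at least 2-fold with induction, against 17 without. Among the MEF-high probes, 99 rose and 41 fell at least 2-fold with induction, against 397 and 3 without. Over all tested probes, 1.02% rose and 1.1% fell at least 2-fold with induction, and 1.72% and 0.233% without. In the comparison with drift, the difference was positive for 314 ES-high probes and negative for 371. With an 8-fold limit this order turned, to 144 positive and 128 negative of 448 probes. For MEF-high probes the difference was negative for 1179 of 2507 (47%) and positive for 548 (21.9%). Over all tested probes it was positive for 17.8% and negative for 23.6%, against 26.1% and 30.9% of ES-high probes.

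Probes in neither list made up much of the large change, though a smaller share than over all tested probes. Among the 337 probes that rose at least 2-fold, 42 were ES-high (12.5%), 99 MEF-high (29.4%) and 196 (58.2%) neither. Among the 363 that fell at least 2-fold, 54 were ES-high (14.9%), 41 MEF-high (11.3%) and 268 (73.8%) neither. Over all tested probes the shares were 3.63%, 7.57% and 88.8%. The day 6 level of 143 rising probes (42.4%) was at least 2-fold above both ES cells and wild MEFs, and 5.31% of all tested probes were that high. The day 3 level of 193 falling probes (53.2%) was at least 2-fold above both, against 5.84% of all tested probes. These levels are of the same arrays as the change and are a description. On day 6, 61 of the falling probes were still that high. Of the falling probes 253 (69.7%) were nearer to ES cells on day 6 than on day 3, as were 73 of the rising probes (21.7%) and 45% of all tested probes.

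The levels of both classes were also described over the induced days. Their opposite steps from day 3 to day 6 follow from how the classes were chosen. The 337 rising probes had a median level of -0.86 on day 1, -0.12 on day 3 and 1.13 on day 6. For the 363 falling probes the medians were 0.44, 1.56 and 0.28. Between day 1 and day 3, 254 of the rising probes (75.4%) had risen and 266 of the falling probes (73.3%) had also risen, against 32.6% of all probes, in a contrast that shares the day 3 arrays. In uninduced cultures the medians of the rising probes were -0.80, -0.57 and -0.18, and those of the falling probes -0.13, -0.20 and -0.24. On day 3, 267 falling probes (73.6%) were at least 2-fold above the uninduced culture of that day, and on day 6 117 (32.2%) were. For rising probes the shares were 35% and 57%, and for all tested probes 8.45% and 7.34%. These levels come from the arrays that chose the classes and are a description.

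A few probes crossed the detection limit between the days. In induced cultures 50 probes were well above background on all 4 arrays of day 6 and on 0 of day 3, and 25 the other way round. These counts are over all 42006 probes. Of the 50, 15 were also well above background on the ES cell arrays and 1 was ES-high. Over all probes, 71.8% and 67.6% were well above background on the ES cell arrays, and 3.63% of the tested probes were ES-high. The uninduced cultures had 61 and 27 such probes. Probe sequences of the classes were alike in base composition: the median GC content was 45.0% for rising, 43.3% for falling and 45.0% for all tested probes. The motif AATAAA, searched on the probe strand, was in 10.4% of the rising, 12.1% of the falling and 7.31% of all tested probes.

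The change between day 3 and day 6 was called different with tamoxifen for few probes. The median standard error of this difference was 0.109 (log2), against 0.0544 for the induced change itself. Differences that would pass as day changes could thus be missed here. Without tamoxifen 13362 probes were called (40.4%) and with it 13601 (41.1%), and 10805 were called in both arms, 80.9% and 79.4% of the respective lists. Of these, 10788 moved in the same direction. The change itself differed between the arms for 160 probes (0.483%), more positive with tamoxifen for 131 (0.396%) and more negative for 29 (0.0876%), and none of them has a gene name here. At an unadjusted p under 0.05 there were 2458. Among the 131, 70 rose over both arms, with a median change of 0.98 with tamoxifen and 0.37 without, and 42 fell, with medians of -0.21 and -0.77. Of the 131, 40 were ES-high, which is 3.33% of the ES-high probes, against 0.396% of all tested probes. The count fell to 80 without the induced day 3 array without tamoxifen replicate 1, and to 92 and 98 without the induced day 3 arrays with tamoxifen replicates 1 and 2. It was 71 in a fit of the 16 arrays of days 3 and 6 alone and 32 with the local backgrounds as deposited. Of the probes called with the authors' series matrix values, 28% were also among the 160 in the same direction. This share was 71.7% with the ratio of the scanner software, 98.2% without loess and 100% with the local backgrounds as deposited.

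The probes with the largest differences between the arms showed different courses. Probe Z00051631-1 was 1.88 and 1.70 without and 1.95 and 1.97 with tamoxifen on day 3. On day 6 it was 2.39 and 2.25 without tamoxifen and 3.88 and 3.93 with it, a difference in change of 1.41 (SE 0.109, adjusted p = 1.50e-07, limma). Probe Z00031262-1 was between 0.08 and 0.25 on day 3 in both arms, and on day 6 it was 0.09 and 0.13 without tamoxifen and 1.53 and 1.29 with it. Its difference of 1.20 did not pass with the ratio of the scanner software (adjusted p = 0.072, limma). Probe Z00020905-1 was already split on day 3, at 1.44 and 1.29 without and 2.76 and 2.68 with tamoxifen, and it was between 0.35 and 0.58 in both arms on day 6. Its difference in change was -1.25, and it did not pass with the ratio of the scanner software (adjusted p = 0.894, limma). Probe Z00036206-1 went from -0.22 and -0.21 to 0.42 and 0.48 without tamoxifen and from -0.49 and -0.44 to -0.60 and -0.79 with it, a difference of -0.90 that did not pass with the local backgrounds as deposited (adjusted p = 0.347, limma).

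**Figure D5:**
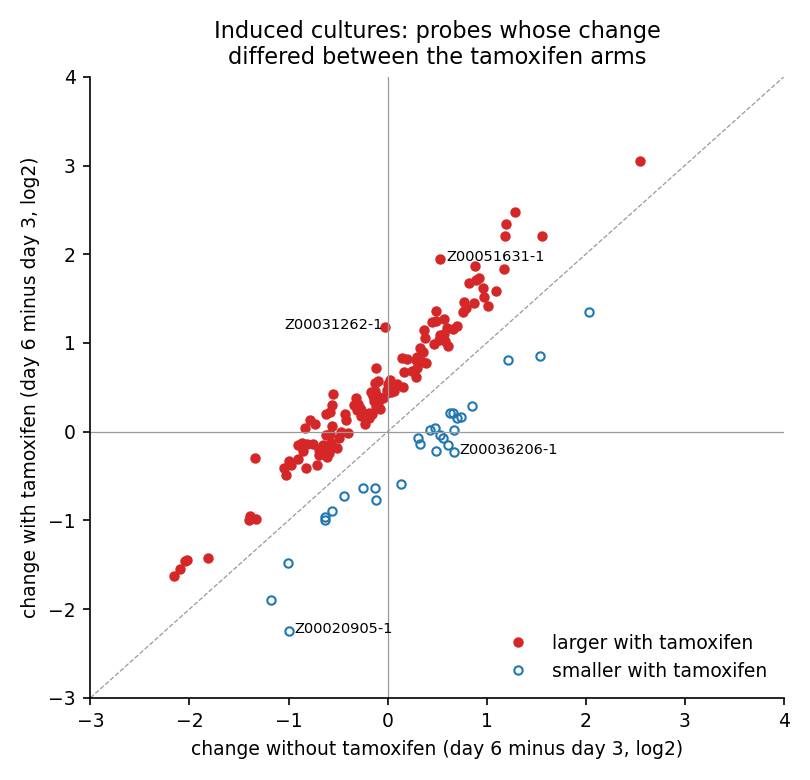
Change from day 3 to day 6 (log2 ratio) in induced cultures without tamoxifen (x axis) and with tamoxifen (y axis) for the 160 probes whose change differed between the arms; the dashed line is equal change. The 131 filled points lie above the line and the 29 open points below it.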

How the data were processed

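The 36 deposited 2-colour scanner files name Agilent Feature Extraction 9.5.1.1 as their source, per the file headers. Their deposited mean and local background intensities are not normalized. Backgrounds that the software marks as outliers were replaced by the array median. Limma's normexp (offset 50) and loess followed, and spots of a probe were averaged. Probes had to be well above background on both arrays of at least 1 group: 33099 were tested and 8907 removed. Limma 3.58.1 (R 4.3.3) fitted 1 mean for each of 18 groups of 2 arrays (18 residual and 5.05 prior degrees of freedom), tested two-sided, with tamoxifen and no-tamoxifen groups averaged within a day and Benjamini-Hochberg adjustment over all probes tested. The fit was run on simulated data with independent noise, the same spread in every group and no slide effect. Unequal spread between groups and slide effects were therefore not tested. Precision is limited by the number of arrays.

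The deposited log10 ratios of that software, per the file headers red over green, had their sign turned and served as an alternative. The authors' series matrix holds log10 values of 25030 probes with column medians of 2.37 to 2.46. For 84.6% of its values the differences between arrays equalled those of the turned ratio within 0.01 (log2), so its scale and direction are known, and its centring is not.

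A gene was given to a probe from an exact match of at least 30 bases to RefSeq windows of 250 bases before to 50 after gene starts (GRCm38.p6) and 1 gene span on that strand. Of 42006 probes 431 were placed and 258 had 1 gene. Uniqueness elsewhere in the genome was not checked. Named genes were the called ones with the largest change whose days did not overlap (12 each way for induced cultures, 5 each way for drift and for the difference, where the arms had to agree), and at most 2 unnamed probes each way. The prepared gene lists held 707 symbols, of which 3 had a probe, so they were not described as lists. The members and lists were chosen with earlier results of these data known. Alternatives were other background, normalization, filter and array choices, a replicate block and each array left out. Replicate numbers did not pair the samples.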

Additional observations from a re-analysis of the deposited data

Results flagged for a closer look

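The change from day 3 to day 6 differed between induced and uninduced cultures for 13699 probes by the interaction test of limma at an adjusted p under 0.05. Among named genes the difference (induced minus uninduced change, log2) was 1.94 for Plet1, 0.84 for Rpl10a, 0.80 for Chil5, 0.69 for Il17rc and 0.52 for Stard13. It was -1.26 for Arhgap27os3, -0.82 for C1qtnf3, -0.66 for Renbp, -0.57 for S100a7a and -0.53 for Bcl11a. Among probes without a gene name it was 3.01 for Z00056592-1 and 3.00 for Z00075510-1, and -3.40 for Z00040660-1 and -3.38 for Z00036124-1. The probes of Chil5 and Z00056592-1 were not well above background on any uninduced array of days 3 and 6, so their uninduced change was not measured. The difference passed under only 11 of 24 other settings for Rpl10a and under 21 of 24 for C1qtnf3. The Stard13 value is that of the probe that rose with induction, and the other Stard13 probe passed in neither culture.

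The change differed between the tamoxifen arms of the induced cultures for 160 probes by the same kind of test. The difference (with minus without tamoxifen, log2) was 1.41 for Z00051631-1 and 1.20 for Z00031262-1, and -1.25 for Z00020905-1 and -0.90 for Z00036206-1. Groups held 2 arrays each, too few to examine single arrays within a group.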

How the results depend on the processing

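With each array left out in turn, the count of called probes ranged from 15845 to 16167 for the induced change, from 13021 to 15981 for the uninduced change, from 12668 to 15198 for their difference and from 80 to 144 for the tamoxifen difference, against 17250, 14680, 13699 and 160. The tamoxifen count was 32 with local backgrounds as deposited, 53 with the software's ratio, 56 without loess and 71 in the fit of 16 arrays. The other counts of called probes stayed within 1.5 times under every setting. Counts of at least 2-fold changes rose with the software's ratio, to 887 higher and 984 lower (induced), 1086 and 459 (uninduced) and 852 and 1602 (difference), and with the series matrix, to 565 and 631, 722 and 190, and 553 and 1137, against 337 and 363, 569 and 77, and 259 and 876. Without loess the induced counts were 393 and 227. The cause was not tested.

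With backgrounds as deposited, 13.1% of ES-high probes rose and 34.4% fell in induced cultures. Without loess 15.4% of MEF-high probes fell. Of 1098 values of named genes and probes under the other settings, 1068 kept direction and call, 30 lost the call and 0 changed direction. These genes and probes were chosen from the same arrays as called ones with the largest changes. Leaving out an array cannot turn a change whose days do not overlap, so these counts are a description. The induced change ranged from 0.64 to 1.46 for Chil5, from 0.16 to 0.99 for Hacl1, from 0.15 to 0.59 for Gm11423, from 0.21 to 0.50 for Stard13 and from -0.48 to -0.22 for Kif22. The replicate block gave 17240, 14658, 13688 and 152 calls. The deviations of same-numbered arrays correlated at -0.26 to 0.53 between induced groups, over 0.1 in 2 of 6 pairs, and at -0.41 to 0.53 over all groups of days 3 and 6, over 0.1 in 12 of 28, so the numbers were not taken as pairs. The variant that counts all probes of listed genes was not run.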
